A study of Mus musculus with 6 samples.

Results

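The acrosome is the enzyme-filled cap that covers the front of the sperm head. It is built in round spermatids from Golgi-derived vesicles that fuse over the nucleus, and it carries proteases, a hyaluronidase and zona-binding proteins that act when the sperm meets the egg coat. Its proteins pass through the endoplasmic reticulum, where testis-specific chaperones fold them, and through the Golgi, whose trafficking factors are needed in mice for a normal acrosome. The genes described here encode this content and this machinery. They were named from a list of 49 symbols and taken from the deposited count table by an exact match of the gene name, which gave 45 genes of the 22770 in the table. Hrb and Acrosin are other names of Agfg1 and Acr, which are counted once, and Mfge8 and Crispld2 were not analysed here.

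Round spermatids were sorted by fluorescence from testes of 28-day-old mice, mostly at step 8 of spermiogenesis, and polyadenylated RNA was sequenced by Smart-seq2. The groups were 3 libraries of the genotype Eif5a SKO and 3 wild-type libraries. The labels do not expand SKO, and the sources used here do not give the allele, the driver of any recombinase or whether each library came from a separate animal, so p-values measure the spread between these libraries, which may be technical. Eif5a encodes a hypusine-modified translation factor that helps ribosomes through difficult sequences such as runs of prolines. The series asks how EIF5A links translation to transcription in maturing spermatids.

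Eif5a itself stood at 6.88, 6.27 and 5.35 CPM in the SKO libraries, against 701, 616 and 662 CPM in wild type, or -6.74 ± 0.17 on the log2 scale (edgeR adjusted p = 9.54e-08). CPM are counts scaled to the effective library size, and fold changes are given as log2 of SKO over wild type ± SE. Library totals ran from 52055193 to 60970931 counts, and the acrosome genes had at least 34 counts in every library. SKO replicate 3 stood apart from SKO replicates 1 and 2 on the second principal component, which held 13.5% of the variance. Values without SKO replicate 3 are given below for some of the genes in which it was the lowest SKO library. Markers of round spermatids summed to between 5091 and 5495 CPM in SKO and between 3674 and 3890 CPM in wild type, with 7 of 11 called higher and 1 lower. Of the elongating spermatid markers 7 of 11 were higher and 0 lower. They summed to between 6981 and 7582 CPM in SKO and between 4601 and 5131 CPM in wild type. Tnp2, Prm1, Prm3, Odf1, Smcp and Oaz3 were called higher and have transcripts of up to 1200 bases. Tnp1 and Prm2 are also of that length and did not pass. Of all coding genes of that length 53.4% were higher, and the part of length in these markers was not tested. Of 13 Sertoli cell markers listed, 7 had a row in the count table, and all 7 were higher. These 7 summed to between 46.2 and 174 CPM in SKO and between 3.05 and 11.0 CPM in wild type. The lists were chosen with earlier results of these data known, so such counts are no independent support. The sums of Leydig cell markers (3 of 6 higher, 0 lower) overlapped. They ran from 8.02 to 44.6 CPM in SKO and from 1.26 to 21.6 CPM in wild type. Spermatocyte markers were mixed (2 of 8 higher, 3 lower), and of 4 spermatogonial markers 0 were higher and 2 lower. Macrophage markers had 1 of 4 higher and 1 lower. Endothelial and peritubular markers had 1 of 2 higher and 0 lower, and erythroid markers 1 of 4 higher and 0 lower. Over all genes tested 21.2% were called higher and 20.9% lower. The part of these cell types in the results below was not tested, and in bulk RNA more cells of a type cannot be told apart from more RNA per cell.

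All 45 acrosome genes passed the filter on low counts. By edgeR's quasi-likelihood test with Benjamini-Hochberg adjustment over all 19776 genes tested, 14 of the 45 (31.1%) were higher in SKO and 6 (13.3%) were lower at an adjusted p under 0.05, while 25 did not pass. Over all genes tested, 21.2% were higher and 20.9% lower. The median log2 fold change of the acrosome genes was 0.23, beside 0.012 for all genes tested. The SKO values lay wholly above the wild-type values for 17 genes and wholly below for 11, together 62.2% of the 45, beside 55.6% of all genes tested. Scaling by library totals alone shifted the median of all genes to -0.23 and left 9 acrosome genes higher and 12 lower, beside 14.3% and 28.7% of all genes. Without WT replicate 2, 9 were higher and 3 lower (15.2% and 15% of all genes), and without WT replicate 1 the lower calls also came to 3 (15.6% of all genes, with 15.7% higher). The acrosome median exceeded the median of all genes by 0.22 with TMM scaling and by 0.22 with library totals. A change of scaling shifts all genes by nearly the same amount, so this difference could hardly move and does not test the direction. The acrosome median itself was -0.013 with library totals, and the counts of calls changed.

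Calls by role are given beside 21.2% higher and 20.9% lower over all genes tested. Matrix and zona-binding proteins (5 of 7 higher, 1 lower) and acrosomal membrane proteins (4 of 7 higher, 0 lower) held most of the genes that rose. Golgi traffic and acrosome formation factors (1 of 12 higher, 1 lower) mostly did not pass. Proteases and their regulators went both ways, with 2 of 8 higher and 2 lower. These role counts were not compared by a test. Spaca1, Spaca4, Eqtn and Tmem190, the 4 membrane genes that rose, have transcripts of up to 1200 bases. Among all coding genes of that length 53.4% were higher.

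**Figure D1:**
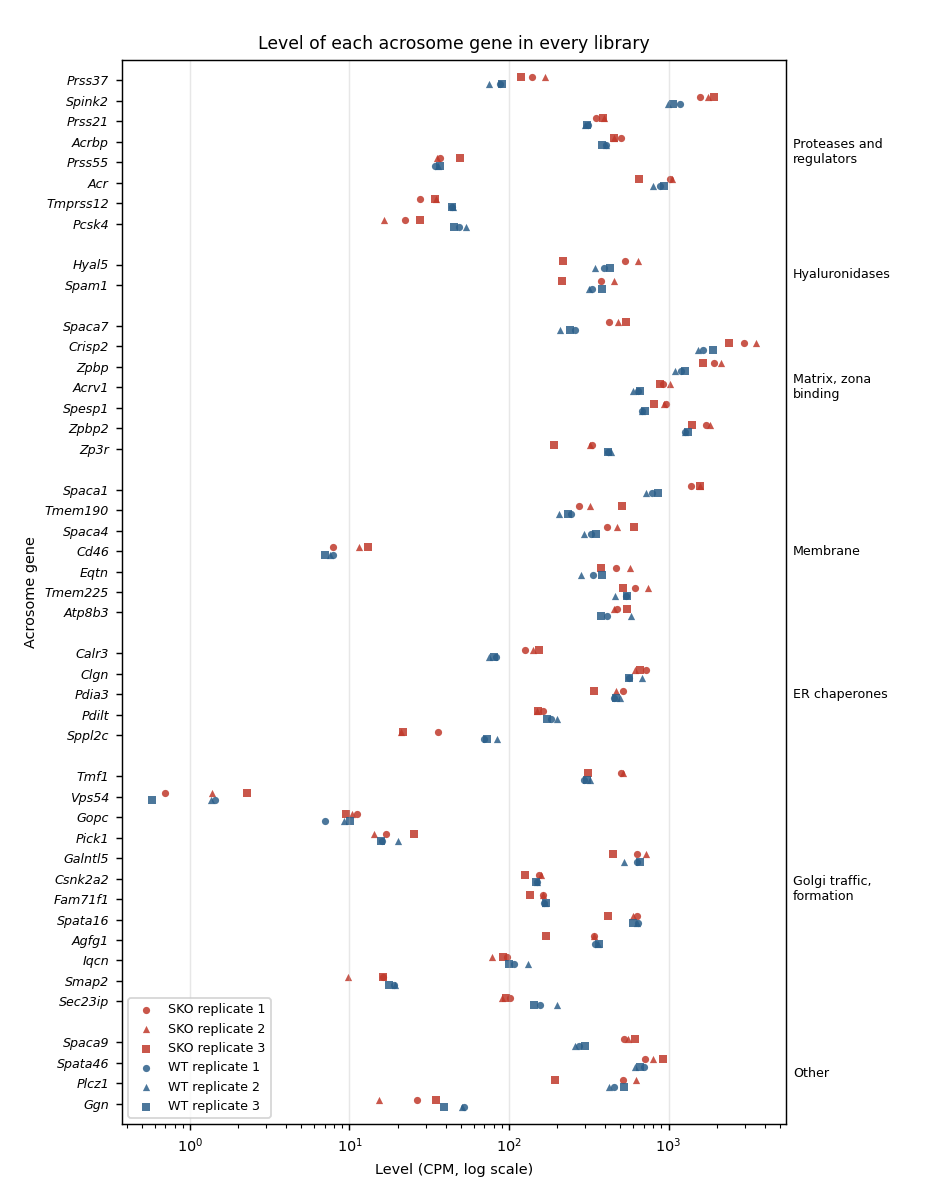
Level of each of the 45 acrosome genes in CPM (log scale) in 3 SKO libraries (red, drawn above) and 3 WT libraries (blue), with 1 symbol per replicate number and genes ordered by role and by change. The red symbols of Spaca1, Crisp2, Spaca7 and Spaca9 lie to the right of all blue ones, those of Sppl2c and Pcsk4 to the left, and for Acr, Hyal5 and Plcz1 the square of SKO replicate 3 lies left of every wild-type library.

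The upstream sequences of 4 of these genes are shown because they set related or opposite results side by side: Zpbp and Zpbp2, which encode related zona-binding proteins of which 1 was called higher, and Tmprss12 and Sppl2c, which were called lower. Each run is the 170 bases before the transcript start in RefSeq (GRCm38.p6), read 5′ to 3′ on the gene's strand. The search was for the cAMP response element TGACGTCA, which CREM-type activators of spermatid genes bind, and its core TGACG, on both strands. Capitals mark the core, which reads CGTCA when it lies on the opposite strand.
Zpbp (chr11:11462420-11462589, minus strand): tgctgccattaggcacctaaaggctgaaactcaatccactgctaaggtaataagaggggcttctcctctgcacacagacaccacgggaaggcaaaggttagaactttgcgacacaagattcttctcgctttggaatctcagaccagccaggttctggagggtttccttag
Zpbp2 (chr11:98550927-98551096, plus strand): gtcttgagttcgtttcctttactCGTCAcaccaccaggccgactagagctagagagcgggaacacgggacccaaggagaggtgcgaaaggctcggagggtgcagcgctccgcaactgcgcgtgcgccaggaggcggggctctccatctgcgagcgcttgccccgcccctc
Tmprss12 (chr15:100280667-100280836, plus strand): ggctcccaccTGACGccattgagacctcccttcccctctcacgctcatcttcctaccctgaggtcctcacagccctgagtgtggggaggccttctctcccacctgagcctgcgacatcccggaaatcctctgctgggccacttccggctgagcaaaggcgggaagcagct
Sppl2c (chr11:104186157-104186326, plus strand): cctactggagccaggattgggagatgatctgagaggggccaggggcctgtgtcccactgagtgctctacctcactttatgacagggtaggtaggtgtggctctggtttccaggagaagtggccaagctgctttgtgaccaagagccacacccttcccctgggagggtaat

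Of the 7 matrix and zona-binding genes 5 rose, 1 (Zp3r) fell and 1 (Zpbp2) did not pass. Crisp2, a cysteine-rich secretory protein of the acrosome and tail (chromosome 17, 40764020 to 40807003, minus strand), stood at 2971, 3537 and 2381 CPM in SKO, against 1653, 1533 and 1891 CPM in wild type. Every SKO library was above every wild-type library, at 0.81 ± 0.16 on the log2 scale (edgeR adjusted p = 0.00342). Spaca7, a matrix protein released at the acrosome reaction (chromosome 8, 12573029 to 12600744, plus strand), had 421, 483 and 539 CPM in SKO, against 258, 208 and 241 CPM in wild type. That is a 2.04-fold difference (log2 1.03 ± 0.14, edgeR adjusted p = 0.000487), and the groups did not overlap. Exons of Spaca7 overlap D630011A20Rik on the opposite strand.

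Zpbp, whose loss in mice disrupts the acrosome (chromosome 11, 11279626 to 11462408, minus strand), had 1922, 2137 and 1642 CPM in SKO, against 1196, 1096 and 1267 CPM in wild type, again without overlap (log2 0.68 ± 0.14, edgeR adjusted p = 0.00326). Its paralog Zpbp2 had 1724, 1832 and 1406 CPM in SKO, against 1274, 1266 and 1331 CPM in wild type. The SKO values of Zpbp2 were also all above wild type, but its change of 0.36 ± 0.13 (log2) missed the threshold (edgeR adjusted p = 0.0518); it passed without SKO replicate 3 (0.43, edgeR adjusted p = 0.000735). Exons of Zpbp overlap those of Spata48 on the opposite strand. The counting strand is not given, so reads within the overlap may not be told apart.

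Acrv1, the acrosomal vesicle antigen SP-10, had 929, 1029 and 880 CPM in SKO, against 644, 595 and 663 CPM in wild type (log2 0.58 ± 0.12, edgeR adjusted p = 0.00416). Spesp1, a protein of the equatorial segment, had 959, 939 and 809 CPM in SKO, against 683, 684 and 711 CPM in wild type (log2 0.38 ± 0.12, edgeR adjusted p = 0.0282). Both showed no overlap between groups, and the call of Spesp1 was lost in 7 of 15 alternative analyses, with library totals alone giving 0.14. Zp3r, a zona-binding matrix protein also known as sp56, ran the other way with 330, 320 and 192 CPM in SKO, against 415, 436 and 416 CPM in wild type. It changed by -0.59 ± 0.19 on the log2 scale (edgeR adjusted p = 0.0335), with SKO replicate 3 the lowest of the 6 libraries, and the call was lost on leaving out any 1 wild-type library, at a highest adjusted p of 0.101.

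Acrosomal membrane genes included 4 that rose and none that fell. Spaca1, an inner acrosomal membrane protein needed in mice for acrosome shape (chromosome 4, 34024874 to 34050191, minus strand), had 1378, 1577 and 1567 CPM in SKO, against 789, 728 and 860 CPM in wild type. The groups were far apart, with a 1.90-fold difference (log2 0.93 ± 0.12, edgeR adjusted p = 0.000413). Spaca4, a small Ly6-type surface protein that takes part in zona binding, had 413, 473 and 611 CPM in SKO, against 327, 294 and 353 CPM in wild type (log2 0.62 ± 0.16, edgeR adjusted p = 0.0123). Tmem190, an inner acrosomal membrane protein found near IZUMO1, had 276, 323 and 513 CPM in SKO, against 245, 206 and 235 CPM in wild type (log2 0.70 ± 0.21, edgeR adjusted p = 0.0258). For Spaca4 and Tmem190 the groups did not overlap and SKO replicate 3 was the highest library. The call of Tmem190 was lost in 6 of 15 alternatives, and that of Spaca4 under library totals (edgeR adjusted p = 0.0947) and without WT replicate 2 (edgeR adjusted p = 0.0595).

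Eqtn, the acrosomal membrane protein equatorin, had 471, 573 and 376 CPM in SKO, against 337, 284 and 380 CPM in wild type. SKO replicate 3 lay within the wild-type range, and its log2 value of 0.50 ± 0.18 (edgeR adjusted p = 0.0426) became 0.0022 after correction for transcript length and GC content (edgeR adjusted p = 0.991). Its call was lost in 9 of 15 alternatives, including the removal of any 1 library other than SKO replicate 3. Cd46, a complement regulator that mouse sperm carry on the acrosome, was scarce at 7.91, 11.4 and 13.1 CPM in SKO, against 7.90, 7.57 and 7.02 CPM in wild type, and did not pass (edgeR adjusted p = 0.0665). Tmem225 (log2 0.27 ± 0.16) and the aminophospholipid flippase gene Atp8b3 (0.11 ± 0.17) also did not pass. Library totals alone left 1 membrane gene called higher, beside 14.3% of all genes, with a median log2 fold change of 0.30 for the 7.

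Proteases and protease regulators split by gene. Spink2, a Kazal-type inhibitor that in mice restrains acrosin during acrosome formation, had 1568, 1768 and 1942 CPM in SKO, against 1174, 990 and 1073 CPM in wild type (log2 0.70 ± 0.13, edgeR adjusted p = 0.00229). It had the highest level per length of the 45 genes in both groups, at a mean of 2788 CPM per kilobase of transcript in SKO and 1710 in wild type. Acrosin itself, encoded by Acr, did not pass: its values were 1029, 1054 and 657 CPM in SKO, against 889, 796 and 943 CPM in wild type (log2 0.06 ± 0.18, edgeR adjusted p = 0.818). SKO replicates 1 and 2 were above all wild-type libraries and SKO replicate 3 was below them all. The gene of the proacrosin-binding protein, Acrbp, had 505, 456 and 452 CPM in SKO, against 404, 404 and 384 CPM in wild type, which did not overlap but missed the threshold (log2 0.24 ± 0.12, edgeR adjusted p = 0.116); it passed after the length and GC correction (0.51, edgeR adjusted p = 0.00196). Exons of Acrbp overlap an antisense gene and Gm44597, a processed transcript on the same strand.

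Pcsk4, the proprotein convertase of spermatids (chromosome 10, 80321283 to 80329498, minus strand), had 22.3, 16.5 and 27.6 CPM in SKO, against 48.8, 53.5 and 45.4 CPM in wild type. All SKO libraries were below wild type, with a ratio of 0.449 (log2 -1.15 ± 0.20, edgeR adjusted p = 0.00141). Prss37, a serine-protease-like protein that in mice is needed for maturation of the sperm surface protein ADAM3 (chromosome 6, 40514824 to 40519508, minus strand), had 140, 167 and 118 CPM in SKO, against 87.998, 74.8 and 90.0 CPM in wild type. It rose without overlap (log2 0.75 ± 0.16, edgeR adjusted p = 0.00436). Tmprss12, a membrane serine protease needed for male fertility in mice, had 27.8, 35.0 and 34.3 CPM in SKO, against 43.8, 44.7 and 44.0 CPM in wild type. All SKO libraries were below wild type (log2 -0.45 ± 0.15, edgeR adjusted p = 0.0326), but the call was lost in 6 of 15 alternatives. Prss21 (log2 0.30 ± 0.12, edgeR adjusted p = 0.0615) and Prss55 (0.19 ± 0.16, edgeR adjusted p = 0.395), both serine proteases of male germ cells, did not pass.

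The 2 hyaluronidases and the egg-activating factor divided the SKO libraries. Hyal5, which disperses the cumulus matrix, had 535, 640 and 217 CPM in SKO, against 392.1, 348 and 433 CPM in wild type. SKO replicates 1 and 2 were above every wild-type library and SKO replicate 3 was below every one, so the log2 fold change was 0.25 ± 0.32 (edgeR adjusted p = 0.565) with it and 0.56 ± 0.11 (edgeR adjusted p = 0.00252) without it. Spam1, the related hyaluronidase PH-20, lies 56949 bases away on chromosome 6 and had 379, 457 and 214 CPM in SKO, against 330, 316 and 383 CPM in wild type (log2 0.03 ± 0.24, edgeR adjusted p = 0.932, and 0.25 ± 0.11, edgeR adjusted p = 0.0878, without SKO replicate 3). Plcz1, the sperm phospholipase C that starts calcium oscillations in the egg, had 515, 623 and 195 CPM in SKO, against 458, 426 and 527 CPM in wild type (log2 -0.08 ± 0.33, edgeR adjusted p = 0.865, and 0.24 ± 0.11, edgeR adjusted p = 0.101, without SKO replicate 3). In both genes SKO replicate 3 was the lowest of the 6 libraries. Related genes such as Hyal5 and Spam1 can share reads, and exons of Plcz1 overlap Capza3 on the opposite strand.

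Among the genes with other roles, Spaca9, a protein of the acrosome and of flagellar microtubules (chromosome 2, 28692080 to 28699727, minus strand), rose most. It had 526, 561 and 616 CPM in SKO, against 274, 259 and 299 CPM in wild type, a 2.05-fold difference without overlap (log2 1.03 ± 0.13, edgeR adjusted p = 0.000237). Ggn, the testis gene gametogenetin, had 26.6, 15.2 and 35.1 CPM in SKO, against 52.1, 51.1 and 39.1 CPM in wild type. Its groups did not overlap and it fell (log2 -0.89 ± 0.27, edgeR adjusted p = 0.0251), but not after the length and GC correction (-0.36, edgeR adjusted p = 0.124). The call was lost in 5 of 15 alternatives, among them leaving out SKO replicate 1 (edgeR adjusted p = 0.0576), WT replicate 1 (0.0786) or WT replicate 2 (0.0856), and its exons overlap Spred3. Spata46, a subacrosomal nuclear protein, had 710, 802 and 927 CPM in SKO, against 707, 615 and 665 CPM in wild type, and did not pass (log2 0.30 ± 0.14, edgeR adjusted p = 0.107).

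**Figure D2:**
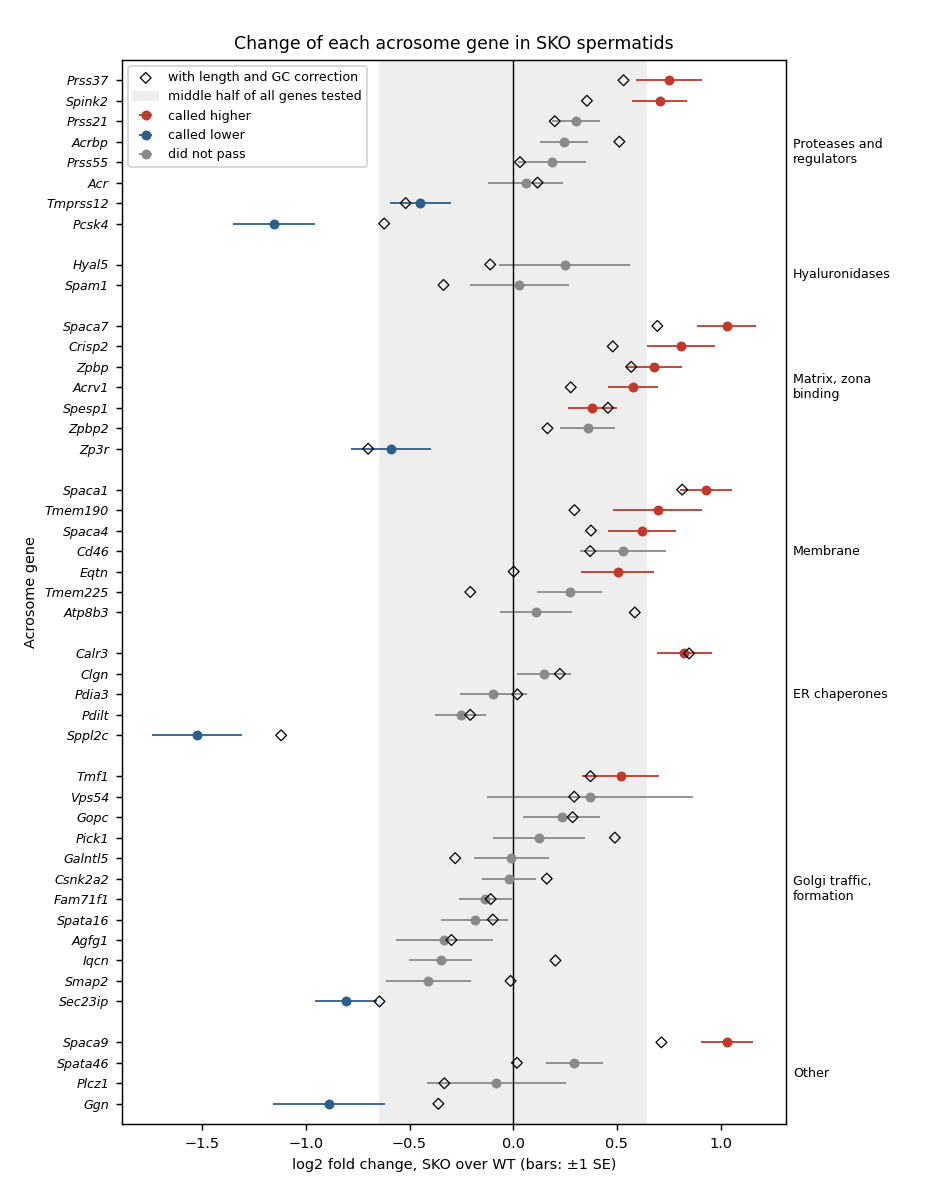
Log2 fold change (SKO over WT) of each acrosome gene by role with bars of ±1 SE from edgeR, filled circles coloured by call, and open diamonds for the same value after correction for transcript length and GC content; the grey band runs from -0.64 to 0.64, the quartiles of all genes tested. Spaca9 and Spaca7 lie at 1.03 and Sppl2c at -1.52, and the diamond of Eqtn sits at 0.0022 while that of Calr3 stays at 0.84.

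The endoplasmic reticulum genes held the largest fall of the 45 and 1 rise. Sppl2c, an intramembrane protease of the spermatid endoplasmic reticulum (chromosome 11, 104186327 to 104191163, plus strand), had 36.04, 21.04 and 21.7 CPM in SKO, against 69.6, 84.1 and 72.9 CPM in wild type. Its groups were widely separated, at a ratio of 0.348 (log2 -1.52 ± 0.22, edgeR adjusted p = 0.000576). Calr3, or calsperin, a testis calreticulin needed in mice for ADAM3 maturation (chromosome 8, 72424176 to 72443870, minus strand), had 125, 142 and 155 CPM in SKO, against 82.6, 75.3 and 80.3 CPM in wild type (log2 0.82 ± 0.13, edgeR adjusted p = 0.00105). Its ubiquitous paralog Calr had 244, 201 and 216 CPM in SKO, against 210, 228 and 188 CPM in wild type and did not pass (log2 0.08 ± 0.13, edgeR adjusted p = 0.668).

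For calmegin the ubiquitous paralog passed and the testis gene did not. Clgn, the testis homolog of calnexin that also serves ADAM3, had 721, 620.4 and 666 CPM in SKO, against 563, 686 and 562 CPM in wild type, which overlapped (log2 0.15 ± 0.13, edgeR adjusted p = 0.393). Canx, calnexin itself, had 190, 241 and 139 CPM in SKO, against 86.1, 84.5 and 87.7 CPM in wild type and rose without overlap (log2 1.14 ± 0.19, edgeR adjusted p = 0.00116). Pdilt, a testis disulfide isomerase homolog that binds calmegin and calsperin, had 164, 150 and 153 CPM in SKO, against 184, 200 and 172 CPM in wild type, wholly below but short of the threshold (log2 -0.25 ± 0.12, edgeR adjusted p = 0.125). Its paralog P4hb (0.60 ± 0.24, edgeR adjusted p = 0.0649) did not pass. Pdia3, the disulfide isomerase ERp57, did not pass either (log2 -0.10 ± 0.16), and its exons overlap Catsper2 on the opposite strand.

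**Figure D3:**
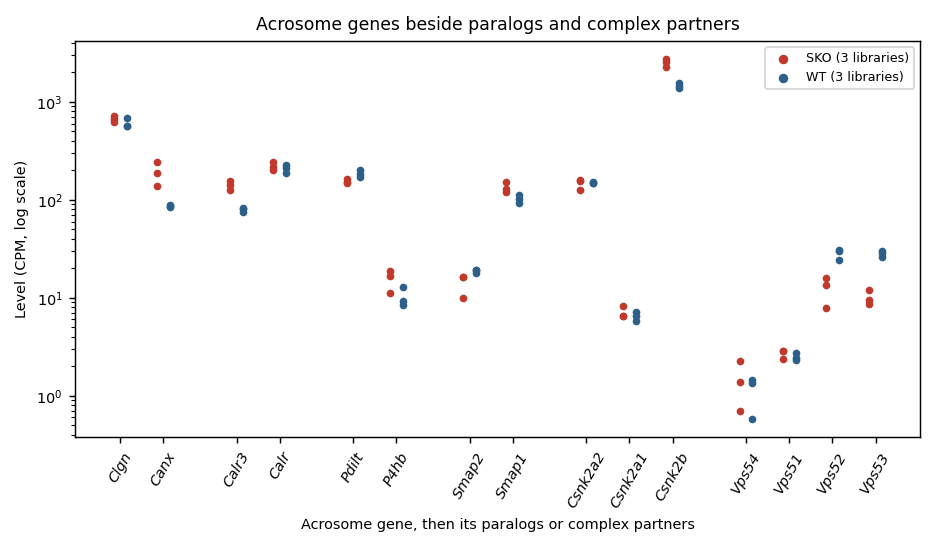
Level in CPM (log scale) of 6 acrosome genes, each followed by its paralogs or complex partners, in 3 SKO libraries (red, left of each pair) and 3 WT libraries (blue). Canx, Calr3 and Csnk2b are higher in SKO without overlap, Vps52 and Vps53 are lower without overlap, and Clgn and Calr overlap between the groups.

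Golgi traffic and acrosome formation genes mostly did not pass. Sec23ip, a partner of the COPII coat whose loss in mice gives round-headed sperm (chromosome 7, 128744943 to 128784836, plus strand), had 101, 89.8 and 95.5 CPM in SKO, against 157, 200 and 144 CPM in wild type. The fall was clear of the spread (log2 -0.81 ± 0.15, edgeR adjusted p = 0.00235), and exons of Sec23ip overlap an antisense gene. Tmf1, a golgin that spermatids need for acrosome formation in mice, had 503, 517 and 311 CPM in SKO, against 297, 323 and 308 CPM in wild type. SKO replicate 3 lay inside the wild-type range, and the call (log2 0.52 ± 0.19, edgeR adjusted p = 0.048) was lost in 11 of 15 alternatives, at a highest adjusted p of 0.221.

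Factors of proacrosomal vesicle fusion did not pass. Agfg1, which acts in fusion of proacrosomal vesicles, had 339, 343 and 170 CPM in SKO, against 344, 359 and 368 CPM in wild type (log2 -0.33 ± 0.23, edgeR adjusted p = 0.284, and -0.10 ± 0.08, edgeR adjusted p = 0.321, without SKO replicate 3). Spata16, a Golgi-linked protein, had 632, 601 and 417 CPM in SKO, against 640, 638 and 599 CPM in wild type (log2 -0.19 ± 0.16, edgeR adjusted p = 0.385, and -0.056 without SKO replicate 3). In both genes SKO replicate 3 was the lowest library, and for Agfg1 it was 49.9% of the mean of SKO replicates 1 and 2. Gopc and Pick1, which bind each other on proacrosomal vesicles, were scarce: Gopc had 11.1, 10.4 and 9.44 CPM in SKO, against 7.05, 9.29 and 10.002 CPM in wild type, and Pick1 had 17.0, 14.2 and 25.2 CPM in SKO, against 15.98, 20.01 and 15.9 CPM in wild type. Neither passed (log2 0.23 ± 0.19 and 0.12 ± 0.22).

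Smap2, an Arf GTPase-activating protein of the trans-Golgi, had 16.3, 9.85 and 16.3 CPM in SKO, against 19.1, 19.4 and 17.8 CPM in wild type, wholly below but not past the threshold (log2 -0.41 ± 0.21, edgeR adjusted p = 0.137). Its paralog Smap1 did not pass either (0.38 ± 0.14, edgeR adjusted p = 0.0564). Vps54, a subunit of the GARP tethering complex, was the scarcest of the 45 at 0.702, 1.37 and 2.28 CPM in SKO, against 1.43, 1.36 and 0.577 CPM in wild type, and did not pass. Among its partner subunits Vps53 fell to 12.1, 9.39 and 8.73 CPM in SKO, against 28.7, 26.0 and 30.0 CPM in wild type (log2 -1.49 ± 0.17, edgeR adjusted p = 0.000194). Vps52 fell as well (-1.19 ± 0.24, edgeR adjusted p = 0.00379), while Vps51 did not pass (0.12 ± 0.23, edgeR adjusted p = 0.716).

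Csnk2a2, the casein kinase 2 catalytic subunit that male germ cells need for a normal sperm head, had 155, 159 and 127 CPM in SKO, against 150.5, 149 and 147 CPM in wild type (log2 -0.02 ± 0.13, edgeR adjusted p = 0.915). The regulatory subunit gene Csnk2b rose to 2569, 2752 and 2247 CPM in SKO, against 1460, 1385 and 1555 CPM in wild type (log2 0.78 ± 0.13, edgeR adjusted p = 0.00104), and the paralog Csnk2a1 did not pass (0.13 ± 0.19). The other 3 genes of this role, Galntl5 (log2 -0.01 ± 0.18), Fam71f1 (-0.13 ± 0.13) and Iqcn (-0.35 ± 0.15), did not pass. Fam71f1 and Iqcn were lower in every SKO library than in any wild-type library. Under library totals alone 6 of the 12 Golgi and formation genes were called lower, beside 28.7% of all genes, which the same scaling shifted.

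SKO replicate 3 departed from the other SKO libraries in many of these genes. It was the lowest SKO library for 22 of the 45 genes (48.9%, beside 38.2% of all genes tested). For 14 genes it was the highest (31.1%, beside 39.8%), so it often stood at one end over all genes too. It was below the wild-type range while SKO replicates 1 and 2 were above it for 3 genes, Acr, Hyal5 and Csnk2a2 (6.67%, beside 3.13% of all genes). Its level was 34.3% of the mean of SKO replicates 1 and 2 for Plcz1, 36.9% for Hyal5, 49.9% for Agfg1 and 51.1% for Spam1. It was above that mean for others, at 171% for Tmem190 and 168% for Ggn. The median coefficient of variation of the 45 genes was 18.3% among SKO and 8.38% among wild-type libraries, beside 23.0% and 14.4% over all genes. Without SKO replicate 3, 20 acrosome genes were called higher and 7 lower, while calls over all genes also became more frequent, at 21.4% higher and 23.5% lower. Acr (0.22, edgeR adjusted p = 0.0489), Acrbp, Prss21, Hyal5, Zpbp2 and Tmem225 joined those called higher.

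**Figure D4:**
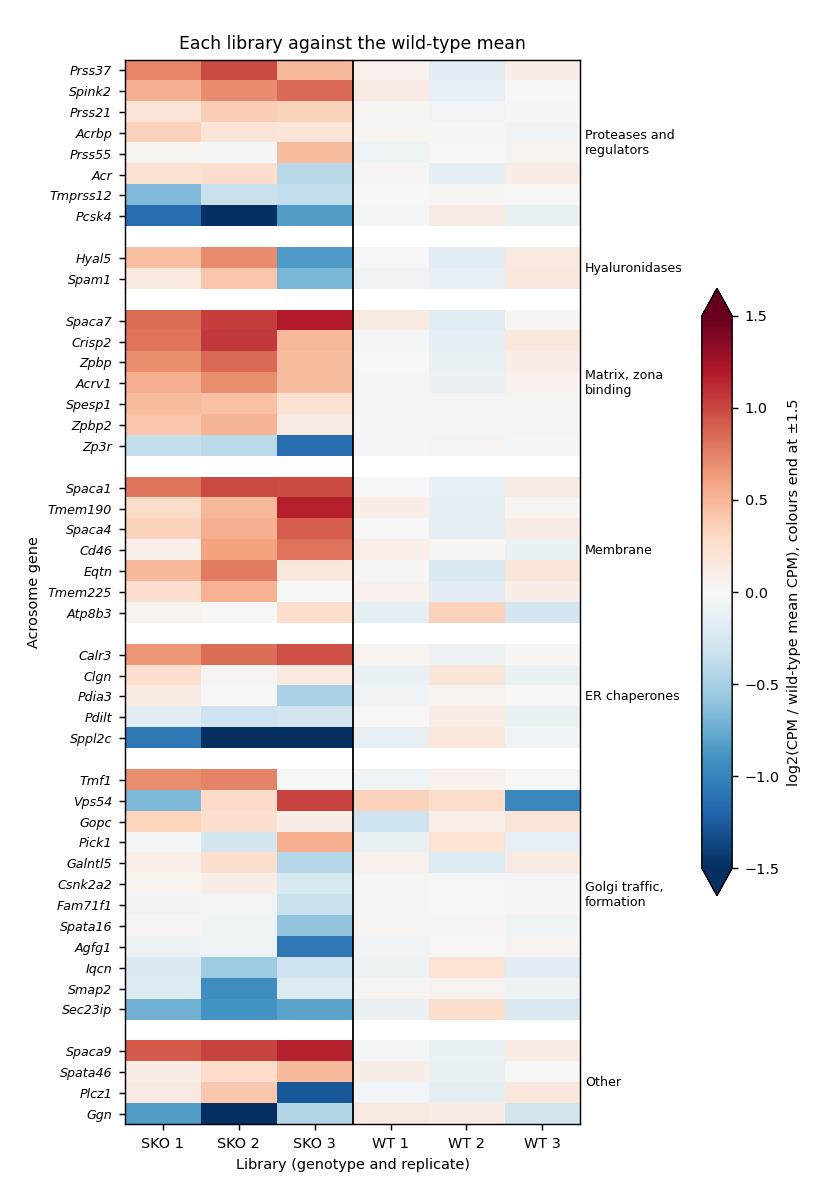
Log2 ratio of each library's CPM to the wild-type mean for the 45 acrosome genes, with SKO libraries left of the black line and WT libraries right of it; red is above and blue below the wild-type mean, and colours end at ±1.5. The SKO 3 column is blue for Hyal5, Spam1, Agfg1 and Plcz1, where SKO 1 and SKO 2 are red or near white, and red in all 3 SKO columns for Spaca1, Spaca7 and Spaca9.

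The summed level of the 45 genes was 23500, 25570 and 21047 CPM in SKO, against 17888, 17171 and 18457 CPM in wild type, or 2.13%, 2.26% and 2.04% of all counts against 1.94%, 1.89% and 1.99%. Every SKO library was above every wild-type library. Without the 10 most abundant genes the sums were 9591, 10274 and 8171 CPM in SKO, against 8316, 8183 and 8490 CPM in wild type, and overlapped. The most abundant genes in CPM included Crisp2, Zpbp and Spink2.

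Calls differed between transcript length classes, with short transcripts most often higher. Of the 13 acrosome genes with transcripts of up to 1200 bases, 9 were called higher and 0 lower, with a median log2 fold change of 0.62. Among all coding genes of that length the median was 0.71, with 53.4% called higher and 7.51% lower. Of the 17 genes of over 1200 and up to 2400 bases 2 were higher and 3 lower (median -0.0088), beside 23.4% and 20.2% of all coding genes of that length. Of the 15 longer ones 3 were higher and 3 lower (median 0.11), beside 13.5% and 26.9% of all coding genes of that length (median -0.18). The acrosome genes in each class are few, and these shares were not compared by a test. After correction for length and GC content the median of the short genes was 0.29, and 13 of the 45 genes were higher and 5 lower, beside 20.6% and 20.5% of all genes. Spaca9 (0.71), Spaca7 (0.69) and Spaca1 (0.81) remained called, as did Pcsk4 (-0.62), Spink2 (0.35), Crisp2 (0.48), Acrv1 (0.28) and Spaca4 (0.37) at smaller values. With the replicate number added as a block to that correction, Spink2 (edgeR adjusted p = 0.052) and Acrv1 (edgeR adjusted p = 0.11) lost their calls. By the length and GC correction alone Eqtn, Tmem190, Tmf1 and Ggn were no longer called, and Acrbp and Atp8b3 (0.59, edgeR adjusted p = 0.00452) were. Of the 20 calls, 10 were kept in every one of the 15 alternatives: Pcsk4, Prss37, Zpbp, Spaca7, Crisp2, Spaca1, Calr3, Sppl2c, Sec23ip and Spaca9. The share of all called genes that kept their calls in this way was not computed, so this count has no background beside it.

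**Figure D5:**
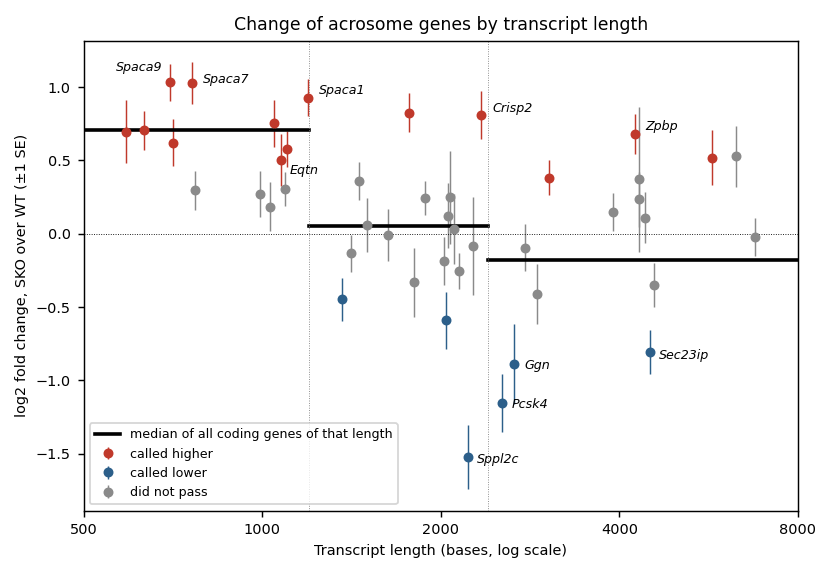
Log2 fold change (SKO over WT, ±1 SE) of the 45 acrosome genes against transcript length in bases (log scale), coloured by call, with black bars at the median of all coding genes tested in 3 length classes (0.71, 0.051 and -0.18 from short to long). No gene left of 1200 bases is called lower, while Zpbp, Crisp2 and Calr3 are called higher among longer transcripts.

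Runs of at least 3 prolines, the sequence that EIF5A is known to help ribosomes through, occur in the proteins of 6 of the 45 genes. They are Ggn, with a longest run of 5, Zp3r, with 4, and Cd46, Iqcn, Sec23ip and Smap2, with 3 each. Of these 6, 0 were called higher and 3 (Ggn, Zp3r and Sec23ip) lower, with a median log2 fold change of -0.50. The other 39 genes, with a median of 0.25, included 14 called higher and 3 lower. The 6 also had longer transcripts, with a median of 3705 bases against 1805 for the other 39. Over all coding genes tested, 14.5% of 2908 with such a run were higher and 26.1% lower, and of 10339 without one 24.1% were higher and 21.1% lower. These are transcript levels, and the part of length in the split was not tested.

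RefSeq promoters, 250 bases before to 50 after the start, were matched for 37 of the 45 genes. The full element TGACGTCA was found in 0 of the 37, beside 3.27% of the 12752 tested genes with a promoter and 1.79% of all 32851 promoters. The core TGACG alone was found in 11 of the 37 (29.7%), beside 30.7% of the tested genes with a promoter and 20.8% of all promoters, so its share was that of the background. It was present in 3 of the 13 promoters of genes called higher, 2 of the 5 of genes called lower and 6 of the 19 of genes that did not pass. In the sequences printed above, Zpbp2 carries it 147 bases and Tmprss12 160 bases before the start, and the windows of Zpbp and Sppl2c hold none.

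Among 34 other acrosome-related genes that were tested, 10 passed as higher and 7 as lower (median log2 fold change 0.15). Over all genes tested the shares were 21.2% and 20.9%. The 2 with the lowest adjusted p in each direction were Spaca5, an X-linked sperm lysozyme-like gene, and Cylc1, an X-linked cylicin of the perinuclear theca, which rose, and Atg7, an autophagy gene needed in mice for acrosome formation, and Actl9, a testis actin-like gene, which fell. Spaca5 had 233, 281 and 361 CPM in SKO, against 62.7, 59.8 and 61.5 CPM in wild type (log2 2.25 ± 0.17, edgeR adjusted p = 2.72e-05), and Cylc1 changed by 1.75 ± 0.17 (edgeR adjusted p = 7.69e-05). None of the 45 acrosome genes lies on a sex chromosome. Atg7 had 33.9, 22.1 and 16.3 CPM in SKO, against 52.1, 60.1 and 64.3 CPM in wild type (log2 -1.29 ± 0.24, edgeR adjusted p = 0.00255), and Actl9 changed by -0.53 ± 0.12 (edgeR adjusted p = 0.00586).

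Prss37, Prss55, Clgn, Calr3 and Pdilt act in mice on the maturation of the sperm surface protein ADAM3. Of 13 further genes of that pathway 5 passed as higher and 3 as lower (median log2 fold change 0.33), beside 21.2% and 20.9% of all genes. Ly6k, a GPI-anchored germ cell protein (1.29 ± 0.17, edgeR adjusted p = 0.000386), and Pmis2, a sperm surface protein (0.83 ± 0.12, edgeR adjusted p = 0.000636), rose. Rnase10 (-1.64 ± 0.19, edgeR adjusted p = 0.000215) and Adam1a, the partner of ADAM2 in the endoplasmic reticulum (-1.29 ± 0.24, edgeR adjusted p = 0.00225), fell. Adam3 itself had 2064, 2066 and 859 CPM in SKO, against 1455, 1456 and 1464 CPM in wild type and did not pass (log2 0.19 ± 0.28, edgeR adjusted p = 0.617). As for Hyal5, SKO replicates 1 and 2 were above every wild-type library of Adam3 and SKO replicate 3 was below.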

How the data were processed

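The authors deposited raw counts per gene, 1 column per library, for 6 Smart-seq2 libraries of polyadenylated RNA, which carry no molecular identifiers. The build was GRCm38 (mm10), and the tools named are HISAT2 2.0.5, featureCounts 1.5.0-p3 of Subread, FastQC and Trim Galore 0.6.4, per the submitters' processing notes. The sources used here do not give the annotation release, the strand setting or how multi-mapping reads were counted, so overlapping genes and close paralogs can share reads. Columns headed cKO and WT were joined to the libraries labelled SKO and wild type by genotype and replicate number.

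The two-sided quasi-likelihood test of edgeR 4.0.16 in R 4.3.3 was fitted to the whole deposited count table after TMM scaling and filterByExpr at minimum counts of 10 and 15, with Benjamini-Hochberg adjustment over 19776 genes (2994 were filtered out). Each SE is the size of the log2 change over the root of its F statistic. All 45 genes matched are named, with up to 2 higher and 2 lower genes of each further list by lowest adjusted p, and all paralogs and partners. The members and lists were chosen with earlier results of these data known. Some further genes named in the text (Adam3) were chosen after their values were seen. Lengths, proline runs, overlaps and coordinates came from GENCODE M21 (GRCm38, longest coding transcript), which matched 22023 of 22770 rows. The length and GC correction was a loess fit of span 0.3 per library. Alternatives were DESeq2 (1.42.0), limma-voom (limma 3.58.1), DESeq2 size factors in edgeR, library totals, upper quartile factors, no filter, the length and GC correction, the replicate number as a block, and each library left out. Scripts were tested on simulated data. Replicates of a group differed by 13.5 to 131 in chi-square per degree of freedom and were kept separate.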

Additional observations from a re-analysis of the deposited data

How the results depend on the processing

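The counts of acrosome genes moved with scaling and with single libraries. Library totals alone gave 9 higher and 12 lower, beside 14.3% and 28.7% of all genes. The median log2 fold change was then -0.013, beside a shift of all genes to -0.23. Leaving out 1 library gave 9 to 20 higher, 3 to 7 lower and a median of 0.15 to 0.24, and calls over all genes moved too. The fewest higher calls came without WT replicate 2 (9 higher, 3 lower, beside 15.2% and 15% of all genes). Without WT replicate 1 there were also 3 lower, beside 15.6% of all genes. The 20 higher and 7 lower came without SKO replicate 3, beside 21.4% and 23.5% of all genes. Same-numbered libraries did not deviate together (correlations -0.022, -0.051 and -0.066, none highest with its own number). With 3 libraries per group this check cannot settle whether the numbers pair them, and the labels do not say what they mark. With the replicate block 11 were higher and 5 lower, beside 18% and 18.5% of all genes. Eif5a stayed between -6.98 and -6.66 throughout. DESeq2, its size factors and no filter turned the sign of no acrosome gene. Signs turned in 16 genes, of which Eqtn (-0.0054 under the replicate block with length and GC correction) was the only one called; the cause was not tested. Under library totals the log2 fold change was -0.19 for Acr, -0.044 for Prss55, -0.22 for Spam1, -0.013 for Hyal5, -0.13 for Atp8b3, -0.091 for Clgn, -0.10 for Pick1 and -0.0074 for Gopc. With length and GC correction it was -0.34 for Spam1, -0.11 for Hyal5, -0.21 for Tmem225, 0.020 for Pdia3, 0.16 for Csnk2a2 and 0.20 for Iqcn, and with the replicate block added -0.37 for Spam1, -0.20 for Hyal5, -0.21 for Tmem225, 0.0083 for Pdia3, 0.15 for Csnk2a2 and 0.19 for Iqcn. Spam1 was -0.035 by limma-voom and -0.031 with the replicate block alone; upper quartile factors gave 0.014 for Csnk2a2 and 0.023 for Galntl5. Leaving out 1 library turned the sign of 11 genes within these ranges: Acr -0.086 to 0.22, Prss55 -0.019 to 0.25, Spam1 -0.24 to 0.25, Hyal5 -0.089 to 0.56, Atp8b3 -0.015 to 0.32, Pdia3 -0.25 to 0.030, Pick1 -0.18 to 0.26, Vps54 -0.14 to 0.68, Csnk2a2 -0.11 to 0.041, Galntl5 -0.19 to 0.13 and Plcz1 -0.44 to 0.24. The 5 genes with wild-type means under 20 CPM (Vps54, Cd46, Gopc, Pick1 and Smap2) were not called.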
